A study of Mus musculus with 12 samples.

Results

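The mouse genes Gabarapl1, Gabarap, Gabarapl2, Map1lc3a, Map1lc3b, Ulk1, Becn1, Atg5, Atg7 and Sqstm1 act in autophagy, and they are described here across sorted CD4 T cells of the gut. They were matched by symbol, ignoring case, to the gene names of a BeadArray table. The list was drawn up around Gabarapl1, whose signal was already known from these arrays to be higher in cells that had lost the transcription factor ThPOK, to see whether related genes shared that difference. The 10 genes are covered by 15 probes, of which 14 were detected on at least 2 of 12 arrays and were kept, and every gene kept at least 1 probe. They are 10 of 10612 genes tested. Differences from ThPOK+ cells were part of how the list was chosen, so for the 10 genes they are given as a description with no test.

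The cells were CD4 intraepithelial lymphocytes of the small intestine, which lie among the epithelial cells of the gut wall. All carried a ThPOK-GFP reporter, in which green fluorescent protein marks cells that express ThPOK, the regulator that holds T cells in the CD4 helper lineage. Sorting by this reporter and by surface CD8a gave THPOK+CD8a-, THPOK-CD8a- and THPOK-CD8a+ cells, called here ThPOK+, CD8a- and CD8a+ cells. Groups labelled WT came from B6-ThPOK-GFP mice that were not part of an experiment. Groups labelled TR came from RAG-/- recipients, which make no T or B cells of their own, after transfer of naive CD4 T cells from reporter mice as a model of colitis. Mice were used at 10 to 12 weeks of age. Every group, of which there were 6, had 2 arrays, numbered replicates 1 and 2, and the 3 arrays of 1 host and replicate form a set, so there were 4 sets. Nothing in the labels says that replicates came from separate animals, so p-values reflect the spread among these arrays only, and that spread may be technical.

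The arrays of replicate 1 and replicate 2 differed in brightness. The median raw signal was 113.6 to 130.8 in replicate 1 and 206.7 to 246.2 in replicate 2. Arrays of replicate 1 were thus dimmer, yet they detected 12024 to 13091 probes, against 6721 to 8195 for replicate 2. Of 9 measured T cell markers, 7 were detected on 12 of 12 arrays, and their mean log2 signal ranged from 9.87 to 10.37. Of 13 measured Paneth and goblet cell genes, none was detected on every array, but the mean log2 signal of the list was 9.53 and 8.18 on the WT ThPOK+ arrays and 9.66 on WT CD8a+ replicate 2, against 5.26 to 7.10 on the other 9 arrays; these 3 arrays are called Paneth-rich. Summed on the linear scale, the list ran from 1318 to 14858 over ThPOK+ arrays, from 524 to 2088 over CD8a- arrays and from 509 to 18045 over CD8a+ arrays. The 14 measured markers of epithelium reached 9.50 on WT ThPOK+ replicate 1 and 9.24 on WT CD8a+ replicate 2, and lay between 5.83 and 7.34 elsewhere. The deposited tables also give opposite hosts for replicate 1, so comparisons of hosts are printed under both assignments.

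Autophagy delivers cytoplasm and organelles to lysosomes inside a double membrane, the autophagosome. The ULK kinase complex starts the process, a lipid kinase complex that contains Beclin 1 marks the growing membrane, and a conjugation system couples small ubiquitin-like proteins of the ATG8 family to its lipids. That family has an LC3 branch (Map1lc3a, Map1lc3b) and a GABARAP branch (Gabarap, Gabarapl1, Gabarapl2), and its members hold cargo receptors such as p62, the product of Sqstm1, at the membrane. In T cells autophagy is known to remove mitochondria and to support survival and memory.

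The genes lie on different chromosomes. Gabarapl1 and Atg7 are on chromosome 6, Ulk1 on 5, Map1lc3a on 2, Gabarapl2 and Map1lc3b on 8, Atg5 on 10, and Gabarap, Sqstm1 and Becn1 on 11. The 250 bases before the annotated start are printed for Gabarapl1 and Ulk1, because these were the members whose arrays of both ThPOK-negative subsets lay wholly apart from the ThPOK+ arrays, in opposite directions. Both are RefSeq sequences of mouse build GRCm38.p6, written 5′ to 3′ on the strand of the gene. Gabarapl1 is on the plus strand at chr6:129532942-129533191 and Ulk1 on the minus strand at chr5:110810082-110810331. Capitals mark the only match to the motifs searched, which was a TAAACA in Gabarapl1.
Gabarapl1: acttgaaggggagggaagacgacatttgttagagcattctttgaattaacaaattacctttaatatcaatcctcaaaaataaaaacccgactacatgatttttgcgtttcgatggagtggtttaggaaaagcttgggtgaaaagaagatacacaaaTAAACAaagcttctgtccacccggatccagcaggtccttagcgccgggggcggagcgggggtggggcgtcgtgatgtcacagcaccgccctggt
Ulk1: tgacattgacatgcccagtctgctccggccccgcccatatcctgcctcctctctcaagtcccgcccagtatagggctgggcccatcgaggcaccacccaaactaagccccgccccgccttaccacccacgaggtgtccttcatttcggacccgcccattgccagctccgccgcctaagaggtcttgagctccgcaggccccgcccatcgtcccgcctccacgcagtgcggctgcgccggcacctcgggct

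The search covered 3 short motifs on both strands, chosen after these sequences had been seen, and no match overlapped another. The forkhead core TAAACA was found in 12.0% of 32851 RefSeq promoter windows of this length. Among the 8 members with a window, it was in Gabarapl1 alone, 94 bases before the start. The E-box CACGTG, found in 6.02% of all windows, was in Atg5, 14 bases before the start, and in Atg7, 132 bases before it. The RUNX core TGTGGT, found in 14% of windows, was in Sqstm1 at 170 bases. The Ulk1 window held none of the 3. Its GC content was 67.2%, against 46.8% for Gabarapl1. These matches describe letters in a window and say nothing of binding.

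Gabarapl1, an ATG8 protein of the GABARAP branch, had the higher signal in both ThPOK-negative subsets. Its normalized log2 signal in ThPOK+ cells was 6.99 and 7.64 in WT and 6.78 and 7.49 in TR, in the order replicate 1, replicate 2. In CD8a- cells it was 8.87 and 9.44 in WT and 8.51 and 8.78 in TR. In CD8a+ cells it was 8.36 and 9.45 in WT and 8.87 and 8.85 in TR. Every ThPOK-negative array lay above every ThPOK+ array, and the CD8a- and CD8a+ arrays overlapped. The probe was detected on 12 of 12 arrays, with 32 to 48 beads behind each value. Fewer expressing cells and less RNA per cell cannot be told apart in RNA from sorted populations.

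The subset means of Gabarapl1 were 7.23 ± 0.41 (SD, n = 4) in ThPOK+, 8.90 ± 0.39 in CD8a- and 8.88 ± 0.45 in CD8a+ cells. The fitted difference was 1.65 ± 0.18 (SE) on the log2 scale for CD8a+ minus ThPOK+, a 3.14-fold higher signal, and 1.67 ± 0.18, or 3.18-fold, for CD8a- minus ThPOK+. Both comparisons use the same ThPOK+ arrays. Within sets the CD8a+ difference was 1.36 and 1.81 in WT and 2.08 and 1.36 in TR, and the CD8a- difference was 1.87 and 1.80 in WT and 1.72 and 1.28 in TR. All 8 differences were thus positive. Over all genes, 9.04% were higher and 8.63% lower in 4 of 4 sets for CD8a+, and 9.58% and 8.37% for CD8a-, and nothing is read from these shares because the list was chosen on these comparisons. Ranked from the highest among 10612 genes, Gabarapl1 stood at 26 for CD8a+ and at 13 for CD8a-. The 2 Paneth-rich ThPOK+ arrays are the only WT ThPOK+ arrays. Without them and WT CD8a+ replicate 2, the differences were 1.60 ± 0.28 and 1.63 ± 0.28. These values have TR ThPOK+ arrays alone as the reference, so they do not check the WT difference.

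Across the 6 groups, the order of Gabarapl1 fell into an upper and a lower range. The 4 ThPOK-negative groups, in either host, lay between 8.36 and 9.45. TR CD8a- cells, at 8.51 and 8.78, were below both arrays of WT CD8a- and of TR CD8a+ cells. The WT CD8a+ arrays, at 8.36 and 9.45, were the 2 ends of the range. The 2 ThPOK+ groups overlapped one another between 6.78 and 7.64. In the plot of values by array, all 4 lines for this gene climb from ThPOK+ to both other subsets.

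**Figure D1:**
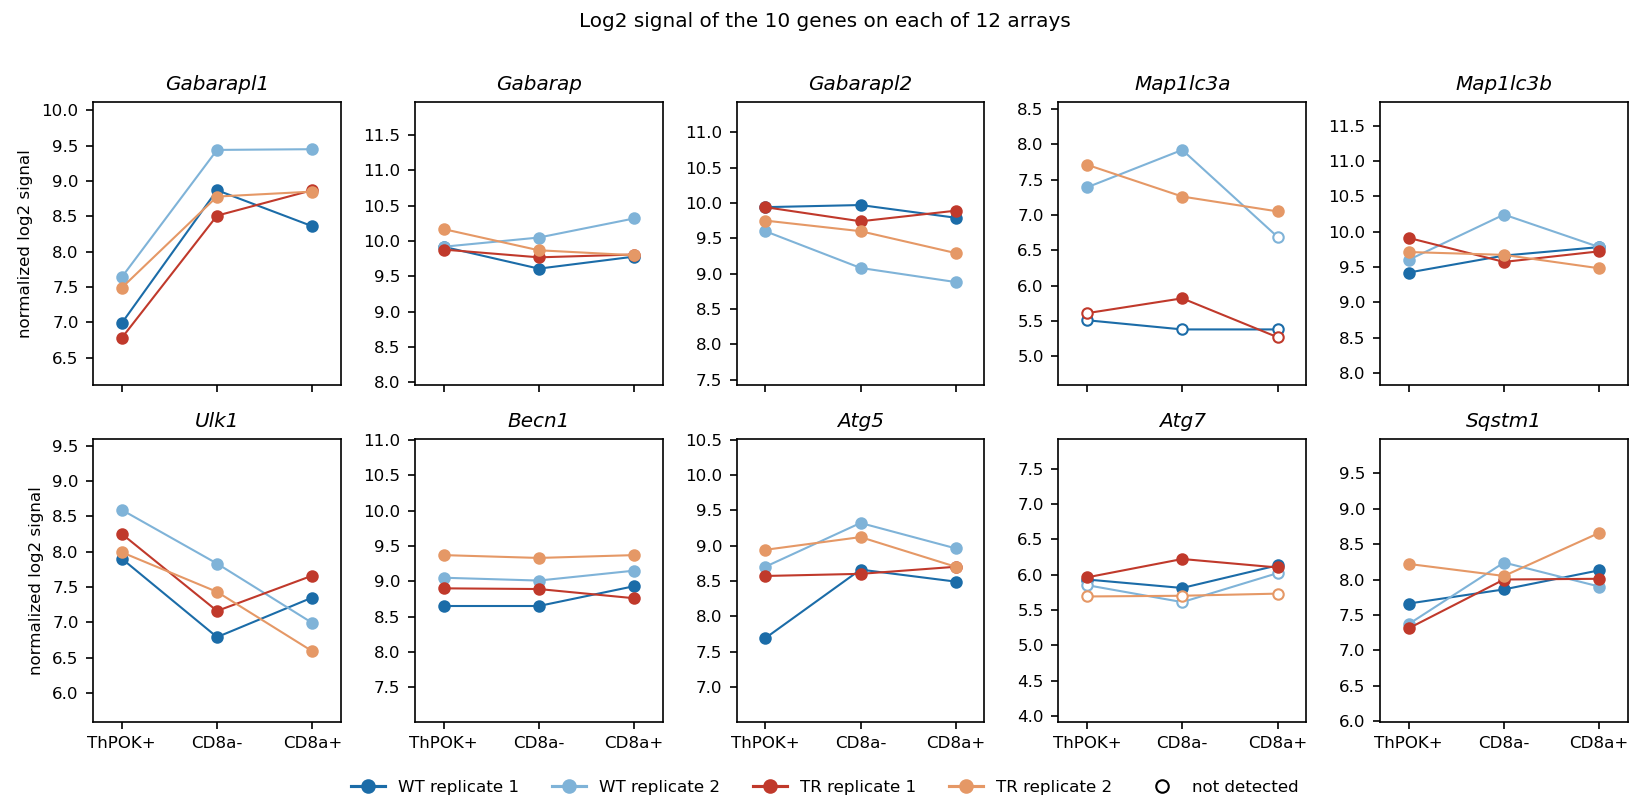
Normalized log2 signal of each gene (vertical axis, the same span of log2 units in every panel) in ThPOK+, CD8a- and CD8a+ cells, 1 point per array, with lines joining the 3 arrays of a set and open points where the probe was not detected. Gabarapl1 is lowest in ThPOK+ cells in all 4 sets, Ulk1 is highest there, and Map1lc3a separates by replicate number.

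For the other ATG8 genes the arrays of the 3 subsets overlapped. Gabarap, the founding member of its branch, had means of 9.97, 9.82 and 9.93 in ThPOK+, CD8a- and CD8a+ cells. Its difference was -0.05 ± 0.16 for CD8a+ minus ThPOK+ and -0.15 ± 0.16 for CD8a- minus ThPOK+. Gabarapl2, the third gene of the branch, ran slightly the other way. Its CD8a+ arrays were below the ThPOK+ arrays in 4 of 4 sets, with differences of -0.16 and -0.72 in WT and -0.05 and -0.45 in TR, and the fitted difference was -0.34 ± 0.16. Its CD8a- difference was -0.21 ± 0.16, with 3 of 4 sets lower. A second Gabarapl2 probe was detected on 3 arrays only and had the same sign as the first in 4 of 8 set differences.

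Of the LC3 branch, Map1lc3b was detected on 12 of 12 arrays between 9.42 and 10.24. Its differences were 0.03 ± 0.19 for CD8a+ and 0.13 ± 0.19 for CD8a-, with 2 of 4 sets higher in each. Map1lc3a was detected on 6 of 12 arrays, which were 2 ThPOK+, 3 CD8a- and 1 CD8a+ array. It read 5.27 to 5.82 in the 6 replicate 1 samples and 6.69 to 7.92 in the replicate 2 samples, so the replicate numbers did not overlap while the subsets did. Its differences were -0.45 ± 0.21 and 0.04 ± 0.21. A second Map1lc3a probe was detected on 0 arrays and was not kept.

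Ulk1, the kinase that starts autophagosome formation, differed in the opposite direction to Gabarapl1. Its log2 signal in ThPOK+ cells was 7.90 and 8.59 in WT and 8.25 and 7.99 in TR. In CD8a- cells it was 6.79 and 7.83 in WT and 7.16 and 7.43 in TR. In CD8a+ cells it was 7.35 and 6.99 in WT and 7.66 and 6.59 in TR. Every ThPOK-negative array lay below every ThPOK+ array. Over all genes, the 4 arrays lay wholly below the 4 ThPOK+ arrays for 1.48% of genes in CD8a+ and 1.30% in CD8a- cells, and wholly above for 1.57% and 1.38%. Nothing is read from those shares either.

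The means of Ulk1 were 8.18 ± 0.31 (SD, n = 4), 7.30 ± 0.44 and 7.15 ± 0.46 in ThPOK+, CD8a- and CD8a+ cells. The fitted difference was -1.03 ± 0.27 for CD8a+, or 2.05-fold lower, and -0.88 ± 0.27 for CD8a-, or 1.84-fold lower. Without the 3 Paneth-rich arrays these were -0.87 ± 0.35 and -0.95 ± 0.35, with TR ThPOK+ arrays alone as the reference. Set by set the CD8a+ difference was -0.55 and -1.59 in WT and -0.59 and -1.40 in TR. The gap was thus wider in replicate 2 than in replicate 1 of both hosts. The CD8a- difference was -1.11 and -0.76 in WT and -1.09 and -0.55 in TR, wider in replicate 1. A second Ulk1 probe, detected on 7 of 12 arrays, had differences of -1.08 ± 0.19 and -1.27 ± 0.19, and the probes had the same sign in 8 of 8 set differences. That second probe was detected on 6 arrays of replicate 1 but on only 1 of replicate 2, from WT ThPOK+ cells. Its replicate 2 differences thus rest on arrays near background. On that probe 4 of 4 sets were lower in each comparison, but its subsets overlapped.

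Becn1, the scaffold of the lipid kinase complex, was nearly level across subsets on its brighter probe. Its differences were 0.06 ± 0.14 for CD8a+ and -0.02 ± 0.14 for CD8a-. The other Becn1 probe gave 0.67 ± 0.37 and 0.06 ± 0.37, so the CD8a+ size of Becn1 differed between the probes. Its largest CD8a+ set difference was 1.98, in WT replicate 2, where the ThPOK+ array did not detect it. Signs of the set differences were not compared, because the CD8a- differences of the brighter probe were only -0.04 to 0.00.

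Atg5 and Atg7 belong to the conjugation system, Atg7 as its activating enzyme and Atg5 as part of the complex that places ATG8 proteins on lipid. Atg5 had log2 signals of 7.69 and 8.70 in WT and 8.57 and 8.94 in TR ThPOK+ cells. In CD8a- cells it had 8.66 and 9.32 in WT and 8.60 and 9.12 in TR, and in CD8a+ cells 8.49 and 8.96 in WT and 8.70 on both TR arrays. The subsets overlapped, and the lowest array was WT ThPOK+ replicate 1, on which the epithelium list was at its highest, 9.50.

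The Atg5 difference was 0.24 ± 0.20 for CD8a+, with 3 of 4 sets higher, and 0.45 ± 0.20 for CD8a-, with 4 of 4 sets higher. Without the 3 Paneth-rich arrays these values were -0.06 ± 0.21 and 0.11 ± 0.21. That fit keeps no WT ThPOK+ array, so leaving out Paneth-rich arrays and leaving out the WT difference cannot be told apart. The second Atg5 probe gave 0.45 ± 0.29 in both comparisons and shared the sign in 6 of 8 set differences. Atg7 was detected on the 6 arrays of replicate 1 and on none of replicate 2. It had differences of 0.14 ± 0.15, with 4 of 4 sets higher, and -0.02 ± 0.15, with 2 of 4 higher.

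Sqstm1 encodes p62, the receptor that links ubiquitinated cargo to ATG8 proteins. Its signal in ThPOK+ cells was 7.66 and 7.37 in WT and 7.31 and 8.22 in TR. In CD8a- cells it ran from 7.86 to 8.24 over the 4 arrays of both hosts, and it was, in CD8a+ cells, 8.13 and 7.90 in WT and 8.01 and 8.66 in TR. TR ThPOK+ replicate 2 lay within the range of the other subsets, and the other 3 ThPOK+ arrays lay below all 8 ThPOK-negative arrays. The CD8a+ difference was 0.53 ± 0.19, with 0.47 and 0.53 in the WT sets and 0.70 and 0.44 in the TR sets. The CD8a- difference was 0.40 ± 0.19, with 0.20 and 0.87 in WT and 0.69 and -0.17 in TR.

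Side by side, Gabarapl1 was the one member higher on all arrays of both ThPOK-negative subsets, and Ulk1 the one member lower on all of them. The next highest differences were 0.53 for Sqstm1 in CD8a+ and 0.45 for Atg5 in CD8a- cells. For CD8a+ minus ThPOK+, 6 of the 10 genes were higher and 4 lower, with a median of 0.04 against 0.003 over all genes, 95% of which lay between -0.83 and 0.77. For CD8a- minus ThPOK+, 5 were higher and 5 lower, with a median of 0.01 against 0.005, and 95% of all genes lay between -0.87 and 0.71. A gene was called where its adjusted p was under 0.05 by limma with Benjamini-Hochberg adjustment. This held for 60 genes in the CD8a+ comparison (0.565% of those tested) and for 6 in the CD8a- comparison (0.0565%). Gabarapl1 was among both, which is a restatement of how the list was chosen and no test of it, and no other member was. Both calls are lost without the 3 Paneth-rich arrays, with no replicate block and with only the 8 arrays compared. Leaving out replicate 1 of either TR ThPOK+ or TR CD8a+ cells ends the CD8a+ call. The CD8a- call is lost with the replicate number alone as the block and without any 1 of 9 of the 12 arrays.

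**Figure D2:**
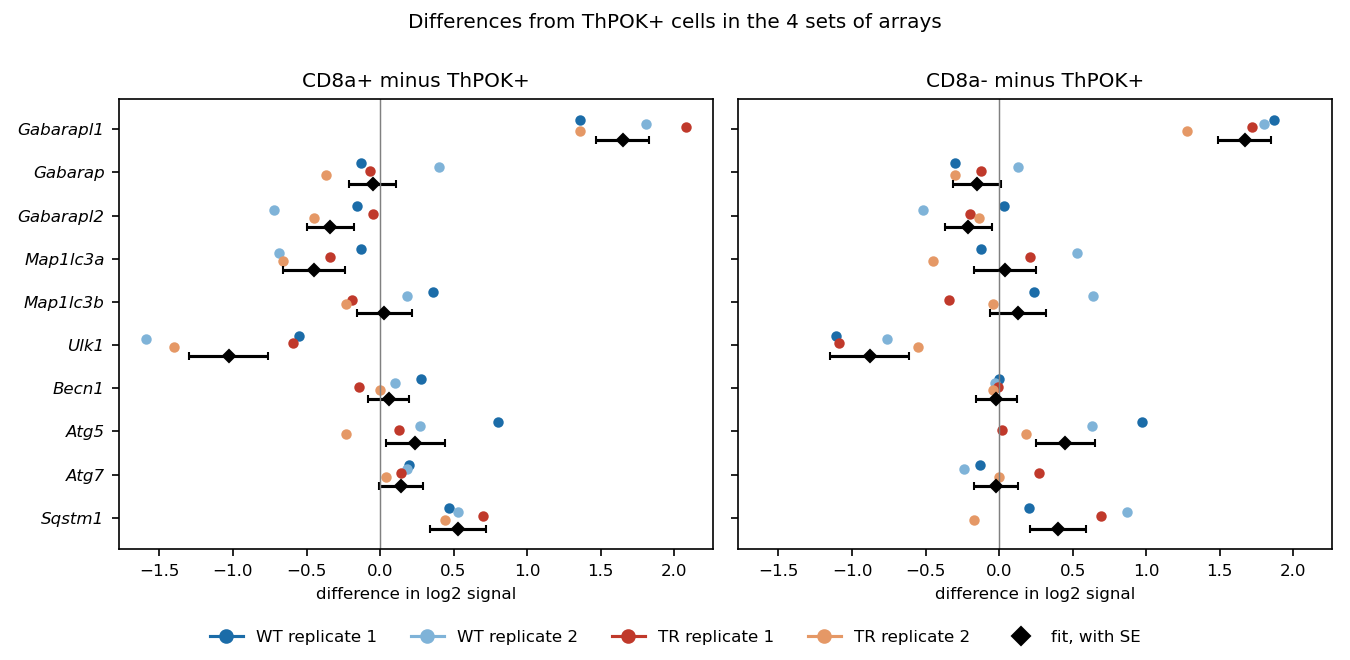
Difference in log2 signal from ThPOK+ cells (horizontal axis) for each gene, with 1 coloured point for each of 4 sets and a black diamond with SE for the fit. All 8 Gabarapl1 points lie above 1.2 and all 8 Ulk1 points lie below 0, while most other genes have points on both sides of 0.

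The comparison of CD8a+ with CD8a- cells was not itself used in choosing the list and was tested. It asks whether the members differ between ThPOK-negative cells that have and have not gained CD8a. None of the 10 did so past the threshold, and 0 of 10612 genes did (0%), with 541 genes at an unadjusted p under 0.05. Gabarapl1 differed by -0.02 ± 0.18, with a 95% interval from -0.43 to 0.40 and an adjusted p of 0.99 by limma. Set by set it was higher in CD8a+ cells in 3 of 4 sets. Its -0.02 is also the gap between its CD8a+ and CD8a- differences from ThPOK+ cells. Gabarapl1 was chosen on those differences, so for this gene the result is not independent of the choice. Over all genes, 6.98% were higher and 7.32% lower in 4 of 4 sets.

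Ulk1 differed between these subsets by -0.15 ± 0.27 (95% interval -0.75 to 0.45, adjusted p of 0.959 by limma), with 2 of 4 sets on either side. Map1lc3a had the smallest unadjusted p of the members, 0.0441, and an adjusted p of 0.895 by limma. Its difference was -0.50 ± 0.21, and 4 of 4 sets counted as lower in CD8a+ cells. In WT replicate 1, however, both arrays read 5.38 without detection, so that set was level. The difference was -1.22 in WT replicate 2, and -0.55 and -0.21 in TR. Map1lc3a was detected on 3 CD8a- arrays and 1 CD8a+ array. The median of the 10 genes was -0.06, and that of all genes was -0.007.

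TR was compared with WT over the 3 subsets to ask whether the members differ in cells recovered from colitis recipients. No member passed the threshold, nor did any of 10612 genes (0%), with 483 genes at an unadjusted p under 0.05. The Gabarapl1 means were 8.46 in WT and 8.21 in TR over 6 arrays each. Its TR minus WT difference was -0.25 ± 0.26 (95% interval -0.84 to 0.35, adjusted p of 1 by limma). With the hosts of replicate 1 exchanged it was -0.23 ± 0.26.

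Ulk1 depended more on which host replicate 1 came from. Its difference was -0.06 ± 0.28 as labelled and -0.40 ± 0.25 with those hosts exchanged, both at an adjusted p of 1 by limma. The sign of Map1lc3a, Atg5 and Atg7 turned under the exchange, from 0.08 to -0.07, from 0.13 to -0.21 and from 0.01 to -0.13. Map1lc3a had the widest error, ± 0.64, and the other 9 genes had errors of 0.18 to 0.28.

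**Figure D3:**
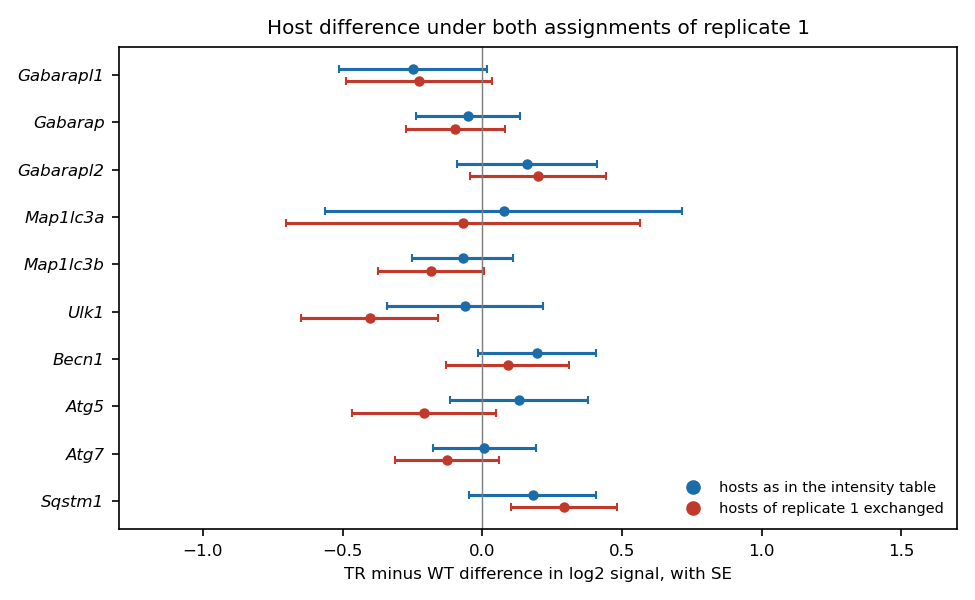
TR minus WT difference in log2 signal with SE (horizontal axis) for each gene, averaged over the 3 subsets, with the hosts as the intensity table names them (blue) and with the hosts of replicate 1 exchanged (red). All 10 genes lie within 0.5 of 0 under both assignments, and Map1lc3a has the widest error.

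Whether the gap between ThPOK-negative and ThPOK+ cells itself differs between hosts was tested as an interaction. No member and none of 10612 genes passed (0%), with 374 genes at an unadjusted p under 0.05. For Gabarapl1 the TR gap minus the WT gap was -0.10 ± 0.33 (95% interval -0.88 to 0.68, adjusted p of 1 by limma), and -0.38 ± 0.31 with the hosts of replicate 1 exchanged. For Ulk1 it was 0.10 ± 0.52 (95% interval -1.13 to 1.32, adjusted p of 1 by limma) and 0.10 ± 0.52 with the exchange. Atg5 had the interaction of largest size among the members, -0.64 ± 0.31, and its second probe gave -1.11 ± 0.39. The adjusted p was 1 by limma for both Atg5 probes, and the first probe gave 0.17 ± 0.38 under the exchange.

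The wider pathway was examined through 94 listed names in 9 roles, of which 76 were measured. Of the 66 measured genes that are not among the 10, none was called in the CD8a+ comparison, in which 0.254% of all genes were called higher and 0.311% lower. None was called in the CD8a- comparison either, where 0.0283% were called each way, nor in the other 3 comparisons. Their differences ran from -0.76 to 0.91 with a median of -0.01 for CD8a+, and from -0.57 to 0.70 with a median of 0.04 for CD8a-. Of the 66, 1 gene was higher in all 4 sets of both comparisons, Calcoco1, a cargo receptor, with 0.39 ± 0.15 and 0.37 ± 0.15. Another, Ddit4, an inhibitor of the growth kinase mTORC1, was lower in all of them, with -0.28 ± 0.16 and -0.39 ± 0.16. Over all genes the shares were 3.16% higher and 3.14% lower, so 1 of 66 each way is not above the background.

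Among the other genes listed for the ULK complex, the related kinase Ulk2 had -0.76 ± 0.50 for CD8a+ and -0.37 ± 0.50 for CD8a-. The complex subunit Atg101 had -0.04 ± 0.30 and 0.12 ± 0.30. The ULK complex had the lowest medians of the 9 roles, -0.40 and -0.39 over 4 measured genes, which include Ulk1. None of its genes was called.

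In the lipid kinase complex, the kinase Pik3c3 had 0.04 ± 0.25 for CD8a+ and 0.51 ± 0.25 for CD8a-, and the Beclin 1 regulator Ambra1 had 0.54 ± 0.39 and 0.03 ± 0.39. Among membrane supply proteins, the lipid transfer protein Atg2b had 0.00 ± 0.17 and 0.03 ± 0.17, and Vmp1, of the endoplasmic reticulum, 0.24 ± 0.16 and 0.08 ± 0.16. The conjugating enzyme Atg3, which hands ATG8 proteins to lipid, had -0.17 ± 0.18 and 0.24 ± 0.18. Atg16l1, the partner of Atg5, had 0.51 ± 0.28 and -0.03 ± 0.28.

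Among cargo receptors beside Sqstm1, Tax1bp1 had -0.04 ± 0.17 and 0.07 ± 0.17, and the receptor for endoplasmic reticulum Retreg1 had -0.28 ± 0.17 and -0.16 ± 0.17. For fusion with lysosomes, the small GTPase Rab7 had -0.06 ± 0.19 and 0.16 ± 0.19, and the tethering subunit Vps16 had 0.06 ± 0.19 and 0.42 ± 0.19. The transcription factors Tfe3 and Zkscan3, an activator and a repressor of autophagy genes, lay within 0.08 of 0 in both comparisons. The medians over all 4 measured transcription factors were lower, -0.25 and -0.15, and none was called. Rheb, which activates mTORC1, had -0.23 ± 0.15 and -0.17 ± 0.15.

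**Figure D4:**
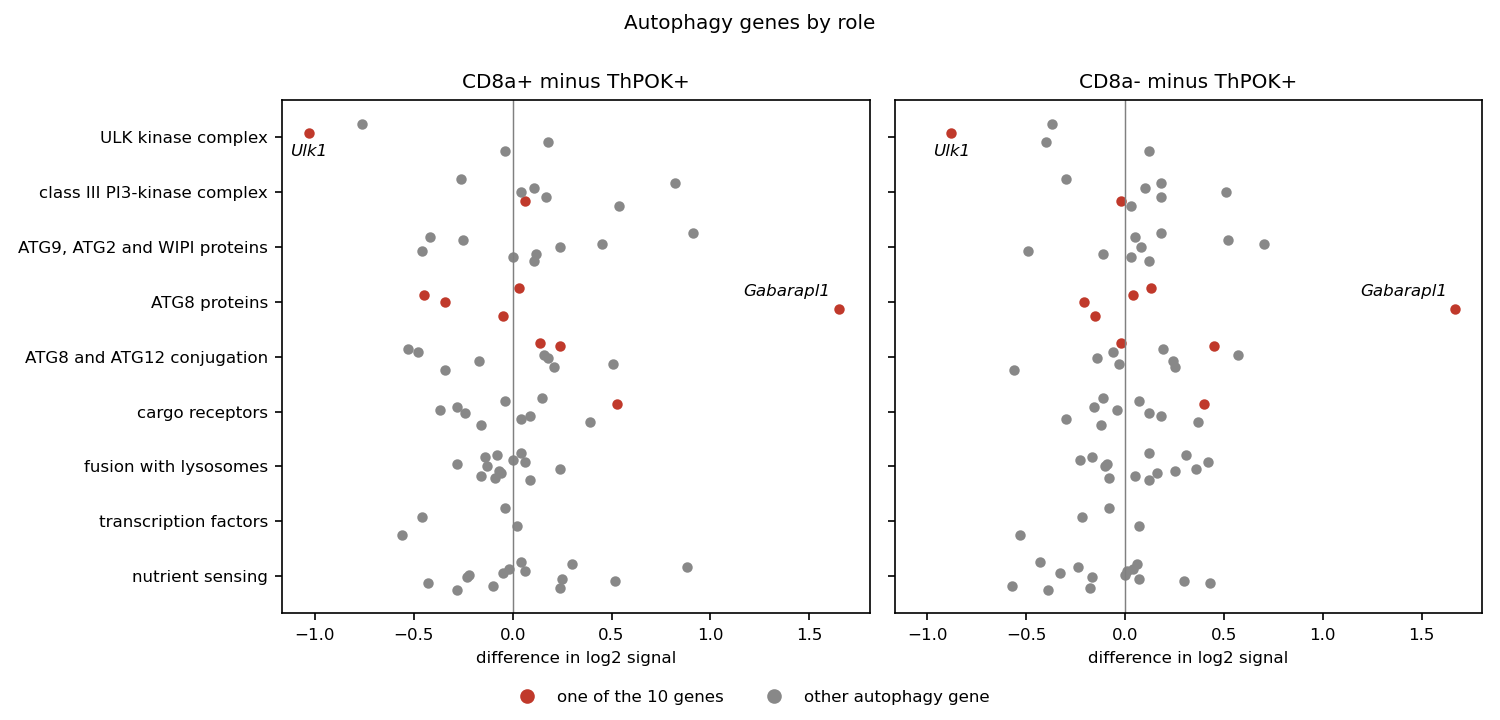
Difference in log2 signal from ThPOK+ cells (horizontal axis) for 76 measured autophagy genes, 1 point per gene, grouped by role, with the 10 genes described here in red. Gabarapl1 lies at 1.65 and 1.67, beyond the other 66 genes, which run from -0.76 to 0.91, and Ulk1 is the lowest point in both panels.

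Genes whose pattern was most like Gabarapl1 were found by Pearson's r over 12 arrays after the mean of each set was removed, among 7518 genes detected on at least 6 arrays. These values are descriptions, since all genes share the same arrays and normalization. With set means removed, Gabarapl1 varied mostly between ThPOK+ and ThPOK-negative arrays, which is the difference the list was chosen on. The r values thus largely rank genes by that same difference. The 10 highest were Nkg7 (0.98) and LOC100047167 (0.98), Ncf1 (0.97), Gzmk, Usp20 and Chsy1 (0.96 each), and Fasl, Prkacb, Itgae and Rgs3 (0.95 each). Nkg7 is a protein of cytotoxic granules, Gzmk a granzyme, Fasl a death ligand and Itgae the integrin chain CD103. Their differences from ThPOK+ cells for CD8a+ and CD8a- were 1.28 and 1.21 for Nkg7, 1.64 and 1.52 for Gzmk, 1.20 and 1.31 for Fasl, and 1.17 and 1.14 for Itgae.

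The 5 lowest were Rpl29 (-0.98), LOC100046855 (-0.97), Tnfrsf4 (-0.97), Il10 (-0.96) and Ccr6 (-0.96). Tnfrsf4 encodes the costimulatory receptor OX40 and had differences of -2.26 and -2.13, and Ccr6, a chemokine receptor, had -3.68 and -3.75. Among the members, r was 0.77 for Sqstm1, 0.64 for Atg5, 0.21 for Map1lc3b, 0.15 for Atg7, -0.01 for Becn1, -0.29 for Gabarap, -0.31 for Map1lc3a, -0.65 for Gabarapl2 and -0.84 for Ulk1. No autophagy gene of the list was among the 10 highest or 5 lowest.

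Gabarapl1 lies on chromosome 6 beside genes for lectin-type receptors of natural killer cells, so its neighbours were listed in the order of the RefSeq table. The 8 nearest measured genes on each side were taken. The nearest measured gene after it was Klrd1, which encodes the receptor chain CD94. Klrd1 was higher in CD8a+ than in ThPOK+ cells by 1.90 ± 0.26 and was called, but its CD8a- difference was 0.34 ± 0.26 and was not. The next, Klrk1, detected on 4 arrays, had -0.22 ± 0.32 and -0.54 ± 0.32. The nearest measured gene before it, Clec7a, detected on 3 arrays, had -0.02 ± 0.25 and -0.36 ± 0.25.

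Of the 16 neighbours, 1 was called for CD8a+, where 0.254% of all genes were called higher, and 0 for CD8a-. Higher in 4 of 4 sets of both comparisons were 3 of the 16, Klrd1, Klrb1f and Ybx3, against 3.16% of all genes, and no test was made of that count. Klrb1f, a lectin-type receptor gene, had differences of 0.51 ± 0.16 and 0.42 ± 0.16, and Ybx3, which encodes an RNA-binding protein, 0.41 ± 0.21 and 0.61 ± 0.21. Magohb, which encodes a protein of the exon junction complex, had 0.81 ± 0.26 and 0.59 ± 0.26, with 4 and 3 of 4 sets higher. Cd69, an early activation and tissue residence marker, had -0.21 ± 0.14 and -0.09 ± 0.14, with 0 of 4 sets higher in each.

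**Figure D5:**
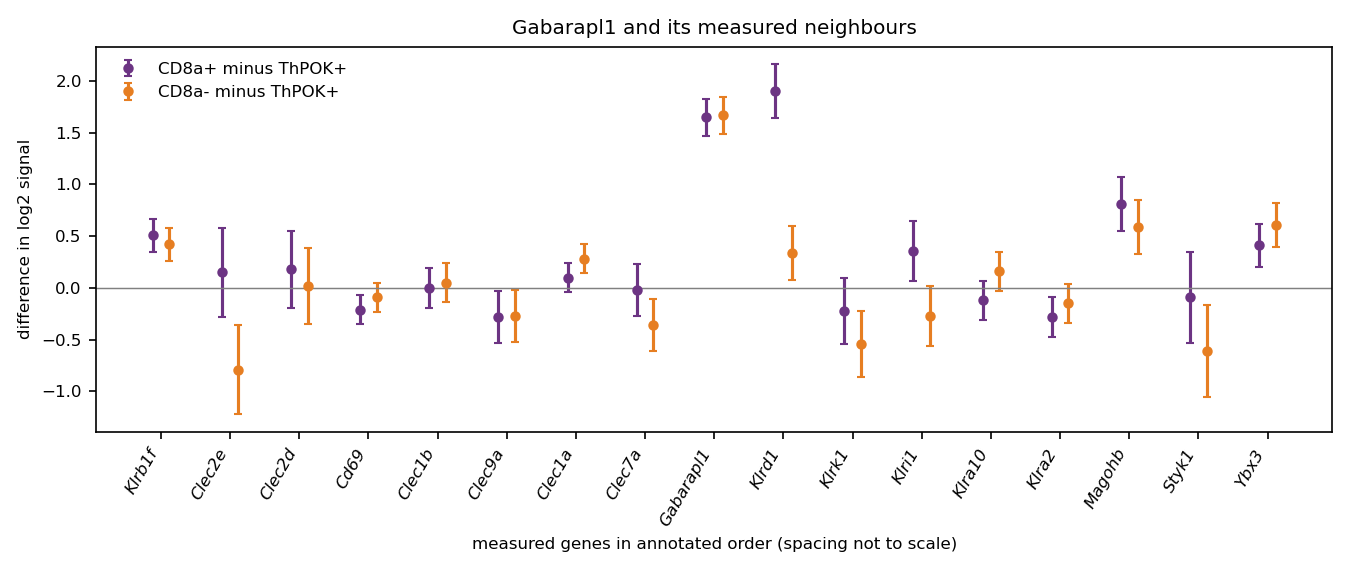
Difference in log2 signal from ThPOK+ cells with SE (vertical axis) for Gabarapl1 and the 8 measured genes on either side, in annotated order with spacing not to scale, for CD8a+ (purple) and CD8a- cells (orange). Gabarapl1 is above 1.6 in both, while Klrd1 is at 1.90 in CD8a+ and 0.34 in CD8a- cells.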

How the data were processed

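Total RNA was extracted with Trizol, cleaned on columns with DNase and amplified with a nano-scale kit, per the labels' protocols. The authors deposited bead intensity per probe from MouseRef-8 arrays, exported by GenomeStudio 1.0.6 without normalization, per the file headers. The deposited detection score runs from 0 to 1 and was read as 1 minus a p-value, and the deposited bead counts give the beads per probe. A second deposited table holds log2 values centred within each set, with scale and centring not stated by the authors. It was found to have the direction of the intensities, with column medians of 0. Within sets it matched the intensities to 1e-05 only if the hosts of replicate 1 were exchanged. Its row names do not pair with the probe column, so it gave counts of rows and no named gene.

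Background correction used neqc in limma 3.58.1 under R 4.3.3, with an offset of 16, before quantile normalization and log2. Of 25697 probes, 14635 were kept because 2 or more arrays detected them at p under 0.05, and the probe with the highest mean stood for each of 10612 genes. Differences are therefore on the log2 scale after the offset, which understates changes of dim probes. Subsets were compared with the 4 sets as a block, and hosts with 6 group means and no block. The 5 comparisons were tested by limma, two-sided, with Benjamini-Hochberg adjustment over all genes and a threshold of 0.05. Errors of log2 differences are standard errors. The replicate numbers were taken as pairing the arrays because differences between replicates correlated in all 15 pairs of groups, with r from 0.356 to 0.657 across genes. These pairs include groups of different hosts, so the correlations bear on the replicate number and do not single out the 4 sets as the block. The number of arrays limits the precision.

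The members, the gene lists and the tests were chosen with earlier results of these data known. Named genes were all members, any called pathway gene, the 2 other genes of highest signal in each role, the 10 most and 5 least like Gabarapl1, and 8 neighbours on each side; Calcoco1 and the neighbours given with values were singled out after their values were seen. Members were matched by symbol. Gene names are those of the array design, updated through the RefSeq table of GRCm38.p6, with 20736 probes under a current symbol, 3841 under an older one and 1120 under the name in the file. The tables name no genome build, so that table gave only names, chromosomes and gene order, and coordinates are those of the promoter table. Probe sequences were not used here, so cross-hybridization between related genes was not examined. Alternatives covered background, offset, scaling, filter, probe choice, block, arrays left out and host assignment.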

Additional observations from a re-analysis of the deposited data

Results flagged for a closer look

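In 30 groups of 4 arrays (10 genes in 3 subsets), 3 held an array far from the rest by Dixon's criterion, which chance meets in about 1 of 20 groups. Gabarap was 10.17 on TR ThPOK+ replicate 2, with the nearest ThPOK+ array at 9.92. Gabarap was also 10.32 on WT CD8a+ replicate 2, one of the 3 Paneth-rich arrays, with the nearest CD8a+ array at 9.81. Map1lc3b was 10.24 on WT CD8a- replicate 2, with the nearest CD8a- array at 9.67.

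Map1lc3b moved in opposite directions in the hosts. Both WT sets were higher and both TR sets lower in each ThPOK-negative subset than in ThPOK+ cells. The TR minus WT difference was -0.48 for CD8a+ minus ThPOK+ and -0.63 for CD8a- minus ThPOK+, and these were not tested singly. For the mean of both subsets the interaction was -0.56 ± 0.30, with an adjusted p of 1 by limma. It was 0.01 ± 0.36 with the hosts of replicate 1 exchanged, so the pattern rests on which host label is right.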

How the results depend on the processing

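The direction of Gabarapl1 and of Ulk1 against ThPOK+ cells held under all 22 alternatives of each comparison. Many of these could not move the estimate. Changes of filter or block, testing every probe, the 8 arrays alone and leaving out an array of the uncompared subset kept the same values. Differences from ThPOK+ cells were also part of how the list was chosen, so the count of 22 is no test of direction. Whether a gene was called depended strongly on the setting. Gabarapl1 ranged from 1.06 to 1.78 (CD8a+) and from 1.07 to 1.78 (CD8a-), and Ulk1 from -1.23 to -0.60 and from -1.05 to -0.52, the smallest sizes without background correction. Of 60 genes called for CD8a+, there were 137 without background correction, 93 with an offset of 50, 10 without the 3 Paneth-rich arrays, 0 with only the 8 arrays compared and 146 in the authors' deposited log2 table. For CD8a- the 6 became 44, 26, 0, 0 and 67 in the same order, 31 with arrays on 1 median and 16 for probes detected on at least 6 arrays. The split of higher and lower calls for CD8a- was 3 and 3, but 17 and 9 with an offset of 50 and 19 and 12 on 1 median. With no replicate block 4 genes were called for CD8a+ and 1 for CD8a-, and with the replicate number alone as the block 12 and 1. Leaving out single arrays gave 2 to 78 genes for CD8a+ (2 without TR ThPOK+ replicate 1 and 5 without TR CD8a+ replicate 1) and 0 to 14 for CD8a-. The members called for CD8a+ numbered 2 when every probe was tested, Gabarapl1 and the second Ulk1 probe. They numbered 0 without the 3 Paneth-rich arrays, with no replicate block and with only the 8 arrays compared, and 0 to 1 with single arrays left out, the losses being TR ThPOK+ replicate 1 and TR CD8a+ replicate 1. For CD8a- the members called numbered 0 under the same 3 settings and with the replicate number alone as the block. With single arrays left out they numbered 0 to 1, and Gabarapl1 kept its call only without WT ThPOK+ replicate 1, WT CD8a+ replicate 1 or WT CD8a+ replicate 2. The cause of these changes was not tested. Some settings left fewer arrays, while the changes of block used every array. For TR minus WT, 1 gene was called with the hosts of replicate 1 exchanged, 0 with the replicate number as a block and 0 to 13 with single arrays left out, 13 of them without WT CD8a+ replicate 1; no member was. On 1 median the median of all genes shifted to 0.15 in that comparison. CD8a+ minus CD8a- and the interaction had 0 calls throughout. The host comparisons were not run without the 3 Paneth-rich arrays, since no WT ThPOK+ array remains, and no member could be named in the authors' log2 table. Map1lc3a on 6 arrays and Atg7 on 6 arrays were near background, which limits what their differences show.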
